A study of Mus musculus with 8 samples.

Results

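Transcripts of 8 TALE homeobox genes were followed in bulk RNA-seq of mouse dorsal root ganglia (DRG), the ganglia that hold the cell bodies of somatosensory neurons together with their glia. The genes were taken by name, with earlier results of these counts known: Meis1, Meis2, Meis3, Pbx2, Pbx3, Pbx4, Pknox1 and Pknox2, 8 of the 55414 genes counted. All 8 passed the filter on low counts that left 17721 genes for testing. The ganglia came from embryos at E18.5, shortly before birth, with 4 libraries in each of 2 groups, which the study counts as separate embryos. AD1 OE embryos (AdvillinCre/+;Rosa26Dach1/+) carried Cre recombinase at the Advillin gene, which drives it in sensory neurons, and an extra Dach1 copy at Rosa26, silent until Cre cuts out the stop sequence in front of it. The Control embryos (Advillin+/+;Rosa26Dach1/+) carried the same Rosa26 allele without Cre. Cre itself, the Advillin allele that carries it and expression of the EGFP joined to Dach1 at Rosa26 therefore differed along with Dach1. Their effects cannot be told apart from those of Dach1 in this design. The comparison asked which transcripts differ when Dach1, a transcriptional regulator that most DRG neurons turn off before birth, is broadly expressed again in the sensory neurons at a late embryonic stage. The Rosa26 line was kept on a mixed genetic background, and the samples held neurons and glia alike.

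TALE proteins are homeodomain transcription factors whose DNA-binding domain carries a loop of extra residues between its first and second helices, from which the name (3-amino-acid loop extension) comes. Pbx proteins bind DNA as partners of Hox proteins, while Meis and Pknox proteins join Pbx in the same complexes and help to keep it in the nucleus. In the peripheral nervous system, Meis2 is known from its requirement in touch-sensing neurons and Meis1 from the survival and target innervation of sympathetic neurons.

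The feature that unites the 8 genes is visible in their coding sequences. The stretches that encode the loop were read 5′ to 3′ from the annotated mouse transcripts (GENCODE M21, GRCm38) and lie in coding exons, with capitals marking the codons for Pro-Tyr-Pro.
Meis1: ctaacacacCCTTACCCTtct
Meis2: ctcacacacCCGTACCCTtca
Meis3: ctctcgcacCCGTACCCTtca
Pbx2: ctgagcaacCCTTACCCTagt
Pbx3: ctcagcaacCCCTACCCCagt
Pbx4: ttgagcaacCCTTACCCCagt
Pknox1: atagggcatCCCTACCCAaca
Pknox2: ctcatgcacCCCTATCCCact

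In each of the 8 genes the loop codons began 24 codons before the codons of the recognition helix, which contacts DNA. These are shown next because they set the Pbx genes apart from the Meis and Pknox genes, with capitals on the 6 codons from TGG onwards.
Meis1: aatTGGTTTATTAATGCCCGGagaaga
Meis2: aacTGGTTTATCAATGCCAGAagaaga
Meis3: aacTGGTTTATTAATGCCCGGagacga
Pbx2: aacTGGTTCGGTAACAAGCGAattcgc
Pbx3: aacTGGTTTGGCAACAAACGAatcagg
Pbx4: aacTGGTTTGGCAACAAAAGAatccgg
Pknox1: aacTGGTTCATCAACGCGAGAagacga
Pknox2: aacTGGTTCATCAATGCCAGGaggcgc

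The third of these codons was ATT or ATC, for isoleucine, in the Meis and Pknox genes and GGT or GGC, for glycine, in the Pbx genes. Meis1 and Meis2 differed at 3 of 21 bases of the loop stretch and at 4 of 27 bases of the helix stretch. Despite this likeness, none of the 8 genes shared a stretch of 50 bases with another in any annotated transcript (0 shared in each of the 28 pairs). The members sit on chromosomes 2 (Meis2 and Pbx3), 7 (Meis3), 8 (Pbx4), 9 (Pknox2), 11 (Meis1) and 17 (Pbx2 and Pknox1).

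The libraries held 22339059 to 44025625 counts assigned to genes. Levels are given as CPM, counts scaled to a common library total. Dach1 was higher in AD1 OE, as labelled (91.5 to 102 CPM against 30.2 to 33.7 CPM in Control, the Rosa26 copy included), and Avil, the gene that carries Cre, was lower (450 to 478 CPM against 840 to 919 CPM). The labels name no sex, so it was taken from the levels of Xist, Ddx3y, Eif2s3y, Kdm5d and Uty. AD1 OE held 3 male libraries and 1 female library (replicate 3), and Control held 1 male library (replicate 4) and 3 female libraries. Across all genes, 455 of 17721 (2.57%) were called, with an edgeR adjusted p below 0.005 and a log2 fold change beyond 0.25 in either direction. Of these, 316 were lower (1.78%) and 139 higher (0.784%) in AD1 OE.

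Of the 8 TALE genes, 2 passed these thresholds, and they were paralogues that moved in opposite directions: Meis1 fell and Meis2 rose in AD1 OE. The remaining 6, Meis3, Pbx2, Pbx3, Pbx4, Pknox1 and Pknox2, did not pass. At an adjusted p below 0.05 with no fold limit, the same 2 genes passed, 1 lower and 1 higher, against 6.55% of all tested genes (4.14% lower and 2.42% higher). The members were chosen with an earlier result for Meis2 in these counts known, so the share called, 2 of 8, was not tested against the 2.57% of all genes. The median log2 fold change was -0.02 over the 8 genes and 0.002 over all tested genes.

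**Figure D1:**
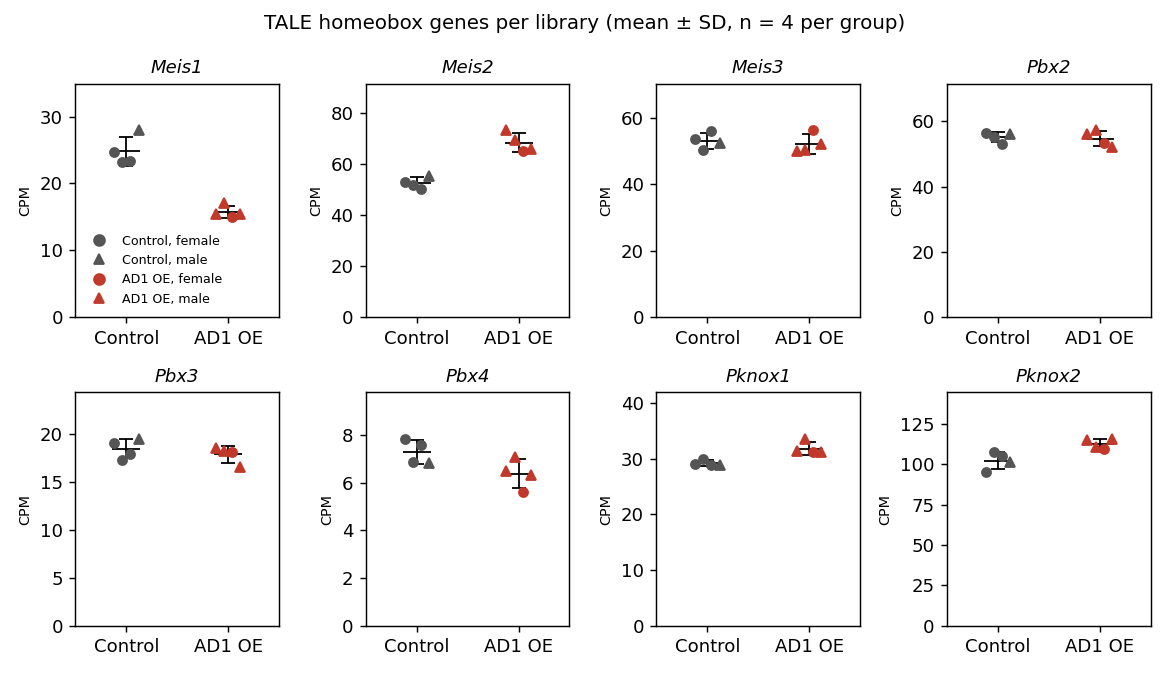
CPM of the 8 TALE genes in each library, with Control in grey and AD1 OE in red, circles for female and triangles for male libraries, and black lines for the mean ± SD (n = 4 per group). The 4 AD1 OE libraries lie below the 4 Control libraries for Meis1 and above them for Meis2, Pknox1 and Pknox2.

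Meis1 (ENSMUSG00000020160) encodes the founding member of the Meis family, first known from leukaemia. In AD1 OE it was at 15.5, 17.1, 15.03 and 15.5 CPM in replicates 1 to 4, and in Control at 24.7, 23.2, 23.4 and 28.0 CPM. The highest AD1 OE library thus lay below the lowest Control library. The mean fell from 24.8 ± 2.18 CPM to 15.8 ± 0.916 CPM (SD, n = 4 each). On the log2 scale the change was -0.66 (standard error 0.07), which left AD1 OE at 0.633 of the Control level. The edgeR quasi-likelihood test gave an adjusted p of 1.46e-04 and placed the gene at rank 137 of the 17721 by p-value. These values rest on 384 to 990 counts per library. Control replicate 4, a male library, was the highest of its group, and without it the log2 fold change was -0.59 (edgeR adjusted p = 3.23e-04).

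Meis2 (ENSMUSG00000027210), the family member required in touch-sensing neurons, was at 73.1, 69.3, 65.1 and 65.8 CPM in AD1 OE replicates 1 to 4 and at 52.8, 51.8, 50.03 and 55.2 CPM in Control. Here the order of the groups was inverted, with the lowest AD1 OE library above the highest Control library. The mean rose from 52.5 ± 2.18 CPM to 68.3 ± 3.69 CPM, which is 1.30 times the Control level or 0.38 on the log2 scale (standard error 0.05, edgeR adjusted p = 4.72e-04). The counts ranged from 1174 to 3235 per library. Meis2 has 19 annotated transcripts, which counts per gene do not separate.

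**Figure D2:**
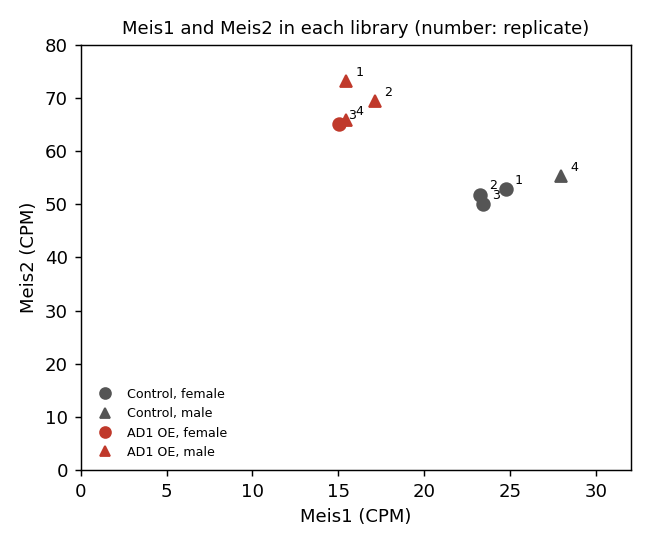
Meis2 against Meis1 in each library, both in CPM, with the replicate number beside each point, Control in grey, AD1 OE in red, circles for female and triangles for male libraries. The groups occupy separate areas, AD1 OE with Meis1 at 15.03 to 17.1 CPM and Meis2 at 65.1 CPM or more, Control with Meis1 at 23.2 CPM or more and Meis2 at most at 55.2 CPM.

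The ratio of the paralogues within a library separated the groups without any scaling between libraries. The log2 ratio of Meis1 to Meis2 CPM was -2.24, -2.02, -2.11 and -2.09 in the AD1 OE replicates and -1.09, -1.16, -1.09 and -0.98 in the Control replicates. The means were -2.12 ± 0.09 and -1.08 ± 0.07 (SD, n = 4 each), a difference of -1.03. Within the groups, Control replicate 4 was the highest Control library for both, and AD1 OE replicate 3 the lowest AD1 OE library for both.

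Meis3 (ENSMUSG00000041420), the third paralogue, was not called. It was at 50.1, 50.2, 56.3 and 52.0 CPM in the AD1 OE replicates, and the Control replicates gave 53.7, 50.2, 56.0 and 52.3 CPM, so that the groups overlapped over nearly their whole range. Its log2 fold change was -0.03, with a 95% interval from -0.14 to 0.09 (edgeR adjusted p = 0.849). The sign of this small value turned when sex entered the model.

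Per transcript length, the 3 Meis genes together were at 95.7 ± 3.08 TPM, a level corrected for exon length, in AD1 OE and 91.6 ± 3.86 TPM in Control, and the groups overlapped. Within that sum the share of Meis1 was 6.35% ± 0.490 in AD1 OE against 10.1% ± 0.810 in Control, and the share of Meis2 was 24.1% ± 1.74 against 18.6% ± 0.946 (SD, n = 4 each). For both, the libraries of the groups did not overlap, with Meis1 at 5.81% to 7.0% against 9.25% to 11.2% and Meis2 at 22.0% to 26.04% against 17.3% to 19.3%. Meis3 held the largest share, 69.6% ± 2.07 and 71.3% ± 1.65, with overlapping libraries. With the mean length of coding transcripts in place of the union of exons, Meis1 went from 7.88% to 4.83% and Meis2 from 25.3% to 31.9%.

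The Pknox genes, also called Prep, encode partners of Pbx that resemble Meis proteins in the recognition helix. Pknox2 (ENSMUSG00000035934), the member with the most counts, was at 115, 111, 109 and 116 CPM in the AD1 OE replicates and at 95.4, 108, 105 and 101 CPM in the Control replicates. The groups did not overlap, but the gap between the nearest libraries, AD1 OE replicate 3 and Control replicate 2, was 109 against 108 CPM. On the log2 scale the difference was 0.14 (standard error 0.04), and the edgeR adjusted p of 0.0750 was above the threshold. Over the alternative fits the adjusted p ran from 0.0396, with no composition scaling, to 0.264, in the fit that included a sex score.

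Pknox1 (ENSMUSG00000006705), expressed in most tissues, was at 31.4, 33.5, 31.1 and 31.1 CPM in the AD1 OE replicates and at 29.1, 30.0, 28.8 and 28.9 CPM in the Control replicates. Its groups did not overlap either. On the log2 scale the difference was 0.12 (standard error 0.05, edgeR adjusted p = 0.179). The 95% intervals of both Pknox genes, 0.05 to 0.23 for Pknox2 and 0.02 to 0.22 for Pknox1, stayed below the limit of 0.25 on the log2 scale. Summed per length, the pair was at 62.8 ± 0.921 TPM in AD1 OE and 55.2 ± 3.26 TPM in Control, without overlap. TPM used no TMM scaling, so its group differences can depart from those in CPM. Pbx2, for example, had means of 61.0 TPM in AD1 OE against 59.3 in Control, but 54.7 against 55.2 CPM.

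Groups that do not overlap were found for 4 of the 8 TALE genes (Meis1, Meis2, Pknox1 and Pknox2), against 13% of all tested genes, and the same 4 had an unadjusted edgeR p under 0.05, against 18.6% of all tested genes. The AD1 OE libraries were all higher in 3 of the 8 members, against 5.69% of all tested genes. They were all lower in 1 of the 8 (Meis1), against 7.26% of all tested genes.

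**Figure D3:**
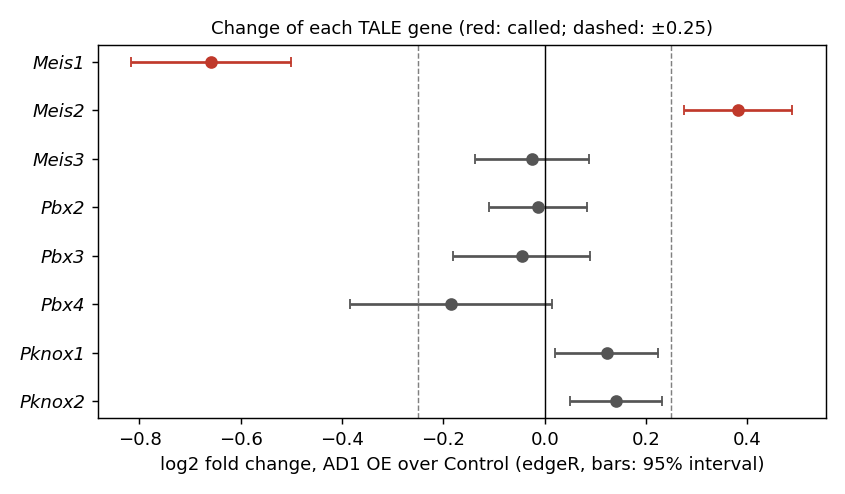
Log2 fold change of AD1 OE over Control for each TALE gene from the edgeR fit, with bars for the 95% interval, red for the called genes and dashed lines at the limit of 0.25 in either direction. Only the intervals of Meis1 and Meis2 lie wholly beyond a dashed line, and only that of Pbx4 reaches across one.

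The Pbx genes examined, which encode the partners of Hox and Meis proteins, were not called. Pbx2 (ENSMUSG00000034673), a broadly expressed paralogue, was at 56.1, 57.3, 53.4 and 52.2 CPM in the AD1 OE replicates and at 56.5, 55.3, 53.1 and 56.1 CPM in the Control replicates. Pbx3 (ENSMUSG00000038718), required for breathing at birth, was at 18.6, 18.3, 18.2 and 16.6 CPM against 19.1, 17.3, 18 and 19.5 CPM. In both genes the groups overlapped, with log2 fold changes of -0.01 (95% interval -0.11 to 0.08, edgeR adjusted p = 0.916) and -0.05 (95% interval -0.18 to 0.09, edgeR adjusted p = 0.760). Neither interval reached the size of the Meis2 change in either direction. Of the summed level of the 3 Pbx genes examined, Pbx2 held 72.1% ± 0.387 in AD1 OE and 70.6% ± 1.05 in Control, with overlapping libraries.

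Pbx4 (ENSMUSG00000031860), best known from the testis, was the member with the fewest counts, 147 to 287 per library. It was at 6.49, 7.08, 5.62 and 6.33 CPM in the AD1 OE replicates and at 7.83, 6.85, 7.59 and 6.83 CPM in the Control replicates. The libraries overlapped, and the log2 fold change of -0.19 had a 95% interval from -0.39 to 0.01 (edgeR adjusted p = 0.306). The interval extended past the limit of 0.25, so that a decrease of that size could be neither shown nor set aside at this depth.

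The spread between replicates lay below the median of all tested genes for each member except Pbx4 in both groups and Meis1 in Control. The coefficient of variation over 4 libraries ranged from 2.7% (Pknox2) to 9.41% (Pbx4) in AD1 OE and from 1.81% (Pknox1) to 8.80% (Meis1) in Control, against medians of 7.09% and 6.77% over all tested genes. For Pbx4, counting alone gives about 7.41% and 6.99%, close to what was seen in the AD1 OE and Control libraries. For Meis1, counting gives 4.70% and 3.8%, so that its spread in Control was larger than counting error.

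In the Control ganglia Meis3 had the highest level per length, 65.4 ± 3.67 TPM, followed by Pbx2 at 59.3 ± 1.11 TPM and Pknox2 at 38.7 ± 2.79 TPM, each without overlap with the next. Meis2 (17.0 ± 0.708 TPM) and Pknox1 (16.5 ± 0.477 TPM) came next and overlapped, as did Pbx4 (12.8 ± 0.803 TPM) and Pbx3 (11.8 ± 0.589 TPM). Meis1 was lowest at 9.22 ± 0.832 TPM, below every Pbx3 library. In AD1 OE, Meis2 at 23.0 ± 1.18 TPM stood clear of Pknox1 at 18.6 ± 0.590 TPM, Pbx3 and Pbx4 overlapped in the reverse order, and Meis1 remained lowest at 6.07 ± 0.322 TPM. The order depended on the length used: with the mean length of coding transcripts, Pknox2 came first in both groups (116 TPM in Control and 132 TPM in AD1 OE), and in Control Pknox1 passed Meis2. Meis1 was the lowest member in both groups under both lengths. Among all tested genes, the Control level of Meis3 exceeded 82.2% and that of Meis1 36.1%.

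**Figure D4:**
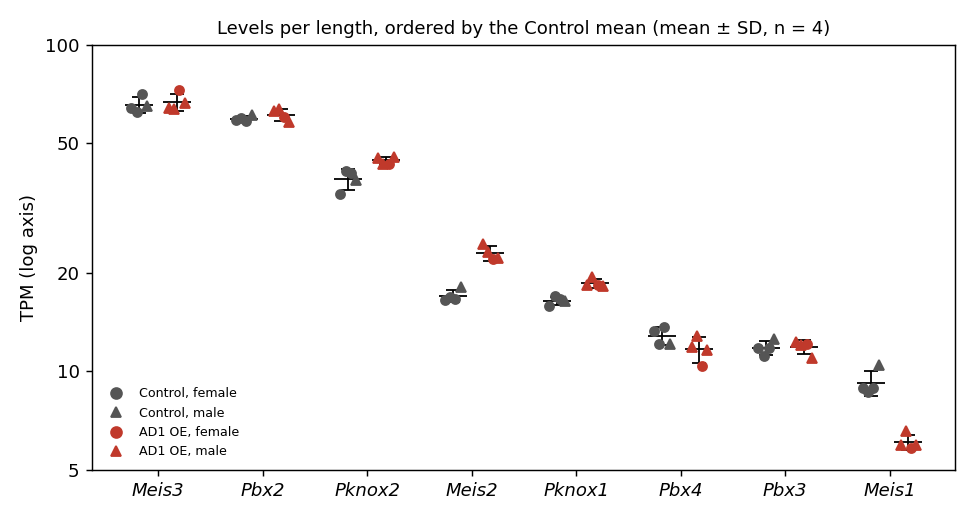
Levels per length in TPM on a log axis for each TALE gene, ordered by the Control mean, with points for single libraries (Control grey, AD1 OE red, circles female, triangles male) and black lines for the mean ± SD (n = 4). Meis3 and Pbx2 lie at 58.1 TPM or more in both groups, and the gap between the groups is visible at Meis2 and Meis1.

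Because the sexes were unevenly divided, the groups were also compared within each sex, with no test since 1 side held 1 library. Meis1 was at 15.03 CPM in the female AD1 OE library against a mean of 23.8 CPM in the 3 female Control libraries, and at a mean of 16.01 CPM in the 3 male AD1 OE libraries against 28.0 CPM in the male Control library (log2 differences -0.66 and -0.81). Meis2 was at 65.1 against 51.5 CPM in females and 69.4 against 55.2 CPM in males (0.34 and 0.33). Both genes kept their direction within each sex. The log2 differences of the Pknox genes had 1 direction in both sexes (0.09 in females and 0.17 in males for Pknox2, 0.09 and 0.15 for Pknox1). For Pbx4 they were -0.40 in females and -0.04 in males.

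With the sex score in the model, Meis1 had a log2 fold change of -0.75 (edgeR adjusted p = 5.11e-05) and Meis2 of 0.33 (edgeR adjusted p = 0.00315), the highest adjusted p of Meis2 over 18 alternative fits. That of Meis1 was 0.00102, without AD1 OE replicate 4. Both genes were called in all 18 fits, 8 of which left out 1 library each. Neither passed when an absolute log2 fold change over 1 was required.

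**Figure D5:**
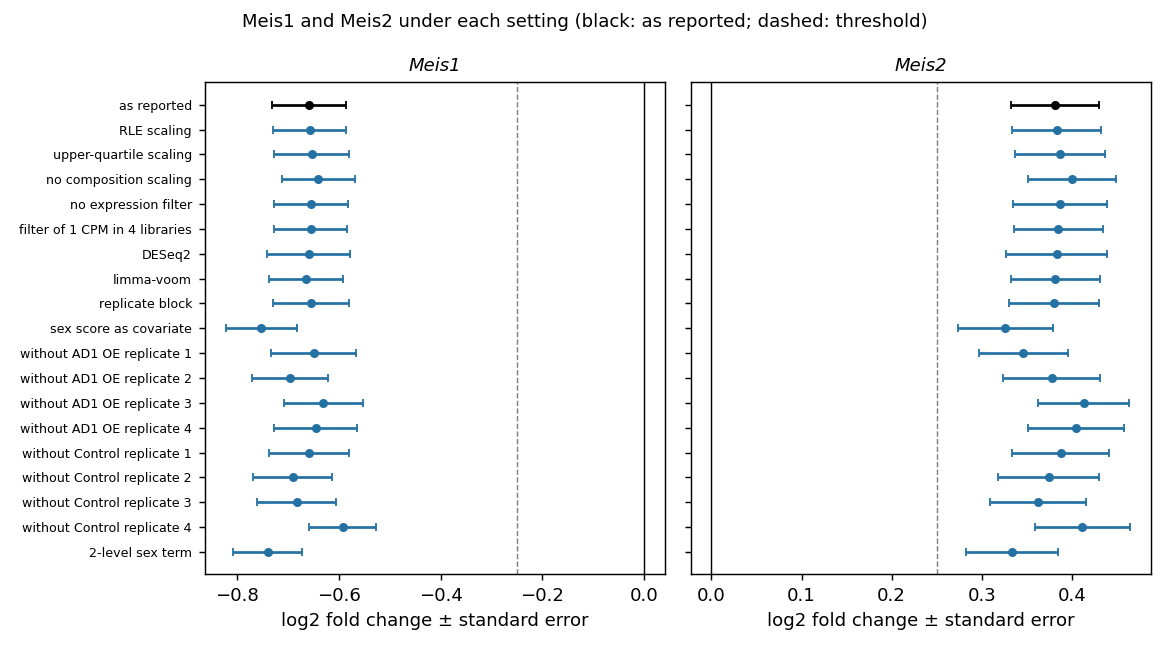
Log2 fold change ± standard error of Meis1 (left) and Meis2 (right) as reported (black) and in 18 alternative fits (blue), with the dashed line at the limit of 0.25 in the direction of each change. Values run from -0.75 to -0.59 for Meis1 and from 0.33 to 0.41 for Meis2, beyond the limit in every fit shown.

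Overlapping genes could add reads to a member or take them away. The sources state neither whether counting used the strand nor how reads on shared exons were assigned. The counts of an overlapping gene do not measure that effect. Meis1 shares 8.51% of its exon length with the antisense gene Gm16140, which had 0 or 1 count in every library, and 9.77% with Gm37818 on the same strand, which had 15 to 33 counts per library (log2 fold change -0.30, edgeR adjusted p = 0.442). Pbx2 shares 6.24% with Gpsm3 and Pknox1 2.24% with an antisense gene. No exon of Meis2, Meis3, Pbx3, Pbx4 or Pknox2 was shared.

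Other TALE homeobox genes were taken as a list: Tgif1, Tgif2, Irx1, Irx2, Irx3, Irx4, Irx5, Irx6 and Mkx. Of these 9, 5 were tested and 0 called by edgeR, with 0 at an unadjusted p under 0.05 and 0 called by DESeq2 or limma-voom. Their median log2 fold change was -0.21, against 0.002 over all tested genes. Tgif1, a repressor tied to forebrain malformation, was at 9.32 ± 0.129 CPM in the AD1 OE group and 8.54 ± 0.666 CPM in Control (log2 fold change 0.13, edgeR adjusted p = 0.382). Mkx, a tendon regulator, was at 5.19 ± 0.295 and 5.59 ± 0.679 CPM (-0.11, edgeR adjusted p = 0.626). Irx3 was at 1.17 ± 0.287 and 1.56 ± 0.376 CPM and Tgif2 at 1.24 ± 0.107 and 1.45 ± 0.188 CPM, both with overlapping groups. The 5 others, the remaining Irx genes, had means under 1 CPM in both groups.

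Hox genes, which encode the partners of Pbx proteins and mark position along the body axis, were counted as a list of 39. Of the 32 tested, 1 was called, against 2.57% of all tested genes. It was Hoxd1, named here after its value was seen. Hoxd1, known from the nociceptor circuitry of mammals, was at 26.2, 27.5, 25.7 and 27.8 CPM in the AD1 OE replicates and at 20.2, 22.6, 20.7 and 21.9 CPM in the Control replicates (0.33 on the log2 scale with an SE of 0.06, edgeR adjusted p = 0.00364). It passed in 8 of the 18 alternative fits. Of the 8 fits without 1 library, it passed in 1, without AD1 OE replicate 3 (adjusted p = 0.00339), and it was lost in the other 7, with the highest adjusted p of these, 0.0144, without Control replicate 3. The log2 fold change stayed between 0.29 and 0.35 over all 18 fits. The highest adjusted p was 0.0241 with the sex score. The median log2 fold change of the 32 was 0.03. All 39 listed genes summed to 320 to 371 CPM in the AD1 OE libraries and 309 to 362 CPM in the Control libraries. The sums hide a wide spread of single genes within each group. Hoxd10 was at 8.52, 1.92, 14.5 and 8.28 CPM in the AD1 OE replicates and at 21.7, 8.78, 0.983 and 3.30 CPM in Control. Hoxd11 ran from 0.0891 to 4.44 CPM in AD1 OE and from 0 to 5.17 CPM in Control. Whether the libraries hold ganglia of the same axial levels was not tested.

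Changes in cell makeup and in transcript level per cell cannot be told apart in bulk ganglia, so marker lists are given beside Meis1 and Meis2. Pan-neuronal genes (Tubb3, Uchl1, Snap25, Isl1, Pou4f1) had 0 of 5 called by edgeR, with 1 at an unadjusted p under 0.05 and 0 called by DESeq2 or limma-voom. They summed to 3378 to 3807 CPM in the AD1 OE libraries and 3708 to 3862 CPM in the Control libraries. Of 8 nociceptor genes, 3 were lower (Scn10a, Calca and Tac1), and the list summed to 2600 to 2821 CPM against 3263 to 3579 CPM. Of 8 genes of low-threshold mechanoreceptors (LTMR) and proprioceptors, 1 was lower (Etv1), and the sums were 1922 to 2035 CPM against 2051 to 2259 CPM. The largest gene in that sum was Ret, at 675 ± 11.2 CPM against 733 ± 40.5 CPM. Non-peptidergic nociceptors also express Ret, so the sum does not stand for LTMR and proprioceptors alone. Ntrk3 of this list, at 343 ± 31.0 CPM against 278 ± 16.9 CPM, was not called in the main edgeR fit (log2 fold change 0.30, edgeR adjusted p = 0.0171). DESeq2 and edgeR without the expression filter called Ntrk3, as higher in AD1 OE. The sums of both lists thus differed between the groups, the second with Ret included. The part of these neurons in the changes of Meis1 and Meis2 was not tested.

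Lists for other cells had 0 called genes by edgeR, DESeq2 and limma-voom (edgeR without the expression filter called 1, Fabp7 of the glial list). The sums overlapped for glia (970 to 1224 CPM in AD1 OE, 1015 to 1226 in Control, 6 genes, 2 at an unadjusted p under 0.05), fibroblasts (4107 to 4546 and 3489 to 4203, 5 genes, 3), endothelium (267 to 314 and 269 to 287, 5 genes, 0) and macrophages (80.6 to 97.2 and 88.5 to 97.4, 5 genes, 0). Erythroid genes (176 to 604 and 170 to 294 CPM, 4 genes, 0) and skeletal muscle genes (72.8 to 383 and 92.3 to 252 CPM, 4 of 5 tested, 0) overlapped as well. Spinal cord (0.950 to 1.26 and 0.654 to 5.17 CPM, 2 of 5 tested, 0) and sympathetic neuron genes (1.02 to 2.03 and 0.707 to 7.83 CPM, 1 of 4 tested, 0) stayed at 7.83 CPM or less in sum, with the highest values in Control libraries. The part of these cells in the changes of Meis1 and Meis2 was not tested.

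The genes whose pattern over the 8 libraries was most like that of the called members were looked up among 14004 other genes whose mean was 1 CPM or more, clone-based symbols left out, by Pearson's r of log2 CPM. For Meis1 they were Gabrg1, a GABA-A receptor subunit (r = 0.990), Rhov (0.982) and Rcan1, a calcineurin regulator (0.981). Their log2 fold changes were -0.94, -0.22 and -0.34. For Meis2 they were Tfcp2l1, a transcription factor (0.982), Dnaaf5, a dynein assembly factor (0.979), and Frmpd3 (0.975), with log2 fold changes of 0.50, 0.11 and 0.55. With group means subtracted, 0 of the 3 genes stayed among the nearest 3 for either member. What the likeness rests on was not tested. Rhov (edgeR adjusted p = 0.0437) and Dnaaf5 (edgeR adjusted p = 0.297) were themselves not called. The likeness is a description over 8 libraries that share the difference between the groups.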

How the data were processed

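Dorsal root ganglia of E18.5 embryos were profiled by bulk RNA-seq from a stranded poly(A) kit. Per the labels and the study's methods, the authors used bcl2fastq 2.20.0.422, STAR 2.7.8a (GRCm39) and featureCounts 2.0.1 to obtain reads, alignments and gene counts. The counts were deposited raw, in a file for each library, with 0 lines that name no gene. The strand setting is not given in the sources used here. Groups and replicate numbers came from the sample titles.

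Symbols came from GENCODE M21 (GRCm38), whose build precedes GRCm39 (52081 of 55414 IDs matched), and its coordinates are not given. Lengths for TPM were the union of annotated exons, and TPM carried no TMM scaling. The tests used edgeR 4.0.16 in R 4.3.3 (filterByExpr, TMM, quasi-likelihood test of the genotype with no covariate, Benjamini-Hochberg adjustment over 17721 genes). Calls followed the study's thresholds, an adjusted p below 0.005 with a log2 fold change beyond 0.25 in either direction. The study used DESeq2, run here as an alternative (1.42.0) beside limma-voom (limma 3.58.1), other scalings, filters and thresholds, a replicate block, sex terms and fits without each library. Replicate pairs differed by more than counting noise (chi-square per degree of freedom 4.34 to 12.2). CPM used TMM-scaled totals, whose factors were 0.987 to 1.000 in Control and 1.006 to 1.008 in AD1 OE. The p-values measure a difference against the spread between these libraries. The test was checked on simulated counts.

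The members and lists were chosen with earlier results of these data known. Named are the 8 members, the label check genes, the list genes, the sex genes and the 3 genes most like each called member.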

Additional observations from a re-analysis of the deposited data

Results flagged for a closer look

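In AD1 OE replicate 2, Pknox1 was at 33.5 CPM while the other AD1 OE libraries were at 31.1 to 31.4 CPM, a gap to the nearest library that was large for the range of the group (Dixon's ratio 0.892, above the 95% critical value for 4 samples). It was 1 of 20 groups examined (8 members, Dach1 and Avil in each genotype), and chance flags about 1 in 20. Without this library the log2 fold change of Pknox1 was 0.10 (edgeR adjusted p = 0.325).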

How the results depend on the processing

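Meis1 and Meis2 kept their direction and their calls in 18 of 18 alternative fits, including the 2-level sex term, which was chosen after seeing the data. The count of called TALE genes was 2 in each of these fits, with no fold limit and in each fit without 1 library (2 to 2), and 0 when a log2 fold change beyond 1 was required. Without 1 library, Meis1 ranged from -0.70 to -0.59 and Meis2 from 0.35 to 0.41. Meis3 was reversed with the sex score (0.0243), with the 2-level sex term (0.0163) and without Control replicate 3 (fits without 1 library -0.0554 to 0.00457), and Pbx2 with no composition scaling (0.00507) and without AD1 OE replicate 3, AD1 OE replicate 4 or Control replicate 1 (-0.0326 to 0.0143). Each reversed value was smaller than its standard error. The count over all genes was 747 with no expression filter (476 lower, 271 higher), 659 under DESeq2, 1161 with no fold limit at an adjusted p under 0.05, 129 with the limit of 1 added, and 289 to 420 without 1 library, lowest without AD1 OE replicate 1. The Hox count was 0 with the replicate block, with the sex score, with the 2-level sex term and with the larger fold limit, and 0 to 1 without 1 library. The marker count was 7 with no fold limit at an adjusted p under 0.05, 0 with the larger fold limit, and 4 to 5 without 1 library. The cause of these shifts was not tested. With the mean length of coding transcripts, 1 of 8 members kept its rank in Control and 5 of 8 in AD1 OE. Leaving out 1 library kept 8 of 8 in Control and 6 to 8 in AD1 OE.

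The replicate numbers did not pair the libraries: deviations from group means correlated at -0.01, -0.05, -0.04 and 0.31 for numbers 1 to 4, and 2 of 8 libraries matched best with their own number. The replicate block gave 348 calls in place of 455, with Meis1 at -0.66 (edgeR adjusted p = 8.17e-04) and Meis2 at 0.38 (0.00177). Depth limits Pbx4 most among the members.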
